A study of Mus musculus with 4 samples.

Results

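The interferon-inducible GTPases examined here are 7 genes, Iigp1, Igtp, Ifi47, Irgm1, Gbp2, Gbp3 and Mx1, read by 9 probe sets in the liver of ABCA1-transgenic mice. Members were taken as every probe set whose only gene symbol in the platform annotation is one of these names, which gave 7 of the 12393 genes and 9 of the 20380 probe sets with a single symbol. ABCA1 is the membrane transporter that passes cholesterol and phospholipid to apolipoprotein A-I, and the study was designed to compare livers that overexpress it with wild-type livers. All 4 arrays used here carry the same label, ABCA1-TG, with 1 biological replicate per array, here called mouse 1 to mouse 4. The animals were C57BL/6 males of 5 to 6 months on the NIH36 diet. The series title places them on an LDL receptor -/- background and the sample descriptions on LDL receptor +/-, and the labels do not settle which holds. The labels name neither the promoter nor the species of the transgene, and wild-type arrays were not analysed here, so every comparison below is between transgenic mice and says nothing about an effect of ABCA1.

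Interferons are secreted in response to infection and act through receptors and JAK kinases on STAT and IRF transcription factors. Those factors bind short promoter elements, the gamma-activated site (GAS) and the interferon-stimulated response element (ISRE). Immunity-related GTPases (IRG proteins) and guanylate-binding proteins (GBPs) are among the most strongly induced products of interferon-gamma in mice, and they assemble on the vacuoles in which intracellular pathogens live. Mx proteins are dynamin-like GTPases induced by type I and type III interferon that block virus replication. IRG proteins fall into effectors that coat the vacuole (Iigp1, also called Irga6, and Ifi47, also called Irgd) and regulators that sit on host membranes and keep the effectors inactive there (Irgm1, and Igtp, also called Irgm3).

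Several members lie beside relatives in the mouse genome. In RefSeq's GRCm38.p6 annotation of C57BL/6J, Gbp2 and Gbp3 are on chromosome 3 with Gbp2b between them. Igtp, Ifi47 and Irgm1 are on chromosome 11, where Igtp is next to Irgm2 and Ifi47 is next to Tgtp2. Mx1 is on chromosome 16 close to Mx2. RefSeq classes Mx1 as a transcribed pseudogene in this strain. C57BL/6 mice are known to carry a defective Mx1 allele, so its signal reports a transcript and not a working antiviral protein.

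Promoter windows of RefSeq, from 250 bases before to 50 bases after a transcript start, were found for 5 of the 7 members and searched on both strands for an ISRE core, GAAANNGAAA, and for GAS, TTCNNNGAA. An ISRE core was present in 4 of these 5 genes, Igtp, Irgm1, Gbp2 and Gbp3, whereas 3.44% of all 32851 windows and 3.99% of all genes with a window held one. GAS was present in Igtp alone among the 5, and 8.30% of all windows held it. The 100 bases before the start are printed for each member with a window, since the matches all lay there. Capitals mark ISRE core and GAS matches, and the sequences read 5′ to 3′ on the strand of the gene.
Igtp, GRCm38.p6 chr11:58199456-58199555, plus strand: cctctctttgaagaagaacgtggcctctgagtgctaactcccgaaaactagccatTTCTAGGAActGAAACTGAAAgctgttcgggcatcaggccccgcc
Irgm1, GRCm38.p6 chr11:48871421-48871520, minus strand: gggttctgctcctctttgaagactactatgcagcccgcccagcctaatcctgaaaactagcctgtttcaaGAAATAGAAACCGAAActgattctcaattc
Gbp2, GRCm38.p6 chr3:142620563-142620662, plus strand: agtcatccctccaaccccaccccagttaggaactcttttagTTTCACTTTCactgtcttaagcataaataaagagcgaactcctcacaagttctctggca
Gbp3, GRCm38.p6 chr3:142559944-142560043, plus strand: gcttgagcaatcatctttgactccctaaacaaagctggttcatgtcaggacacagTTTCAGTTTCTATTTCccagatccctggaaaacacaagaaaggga
Ifi47, GRCm38.p6 chr11:49076487-49076586, plus strand: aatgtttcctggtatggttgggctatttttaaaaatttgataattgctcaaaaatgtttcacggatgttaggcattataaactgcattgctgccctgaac

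In Igtp the GAS match lay 45 to 37 bases and the ISRE core 34 to 25 bases before the start. Irgm1 held 2 overlapping ISRE cores, at 30 to 21 and 24 to 15 bases, and Gbp3 held 2 overlapping cores on the opposite strand, at 45 to 36 and 39 to 30 bases. Gbp2 held 1 core on the opposite strand, 59 to 50 bases before the start. A second RefSeq start of Gbp3 and the window of Ifi47 held neither motif, which says only that these letters are not in those windows. Among other genes of the system, an ISRE core was found in 6 of 6 further IRG, GBP and Mx family genes with a window and in 11 of 17 type I interferon targets. It was found in 2 of 12 other interferon-gamma targets, 3 of 22 receptor and signalling genes, 0 of 12 dynamin superfamily genes and 0 of 11 autophagy conjugation genes. GAS was found in 5 of 6 of the further family genes, 5 of 17 type I targets, 2 of 12 interferon-gamma targets, 7 of 22 signalling genes, 2 of 11 autophagy genes and 0 of 12 dynamin superfamily genes.

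**Figure D1:**
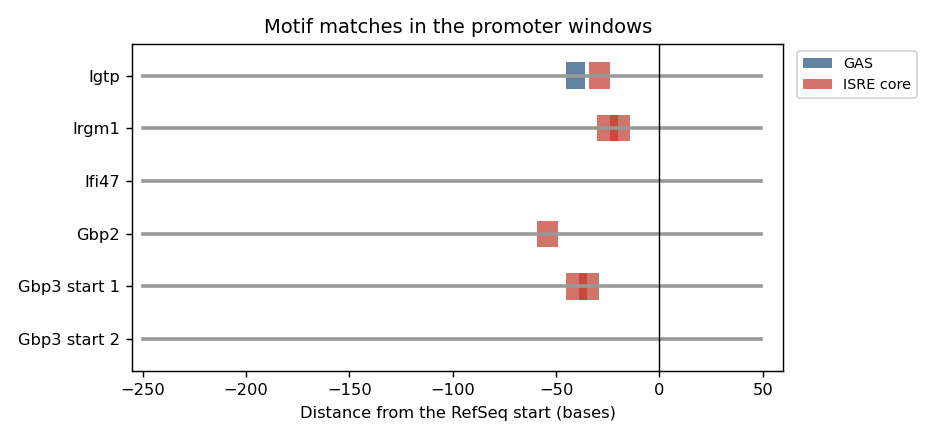
Positions of ISRE core (GAAANNGAAA) and GAS (TTCNNNGAA) matches, both strands, in the RefSeq promoter windows of 5 members, with distance from the transcript start in bases on the x axis and 1 line per start. All matches lie within 59 bases before a start, and Ifi47 and the second Gbp3 start have none.

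The arrays were scaled by the authors to the same trimmed mean, and the values below are their linear signal intensities per probe set. Array medians lay between 267 and 305. Mouse 1 stood apart in skeletal muscle and bile duct markers. The summed signal of 10 skeletal muscle markers was 627 there and 6101 to 9014 in mice 2 to 4, and that of 6 bile duct markers was 402 there and 1029 to 1266 in the others. The 3-prime to 5-prime log2 ratio of the Gapdh control probe sets was lowest there, 1.67 against 1.94 to 2.03 in mice 2 to 4, as were those of the Actb and Pcx controls, while that of the transferrin receptor control was highest there, 4.03 against 0.02 to 2.61. It also had the highest 18S control signal, 9.95 against 8.75 to 8.98 log2. Mouse 2 stood apart in exocrine pancreas markers, described with the other cell types. Hepatocyte markers, 8 of 8 measured, had a summed signal of 329994 to 372869, and none averaged under 64. Probe sets differ in binding, so the level of 1 probe set is not compared with that of another.

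Ifi47, an IRG effector, differed most between the mice. Its signal was 2312.1, 3446.3, 6249.6 and 3428.7 in mice 1 to 4. Mouse 3 was highest and mouse 1 lowest, 2.70-fold apart, with mice 2 and 4 almost level between them. The log2 level was 11.82 ± 0.59 (SD, n = 4), and that SD was 3.47 times the prior SD, which is the spread limma fits for probe sets of the same mean level. Only 0.689% of all probe sets had a relative spread at least as large. The excess spread had an unadjusted p of 0.011 and an adjusted p of 0.977 over all 22626 probe sets (limma, Benjamini-Hochberg), so Ifi47 did not pass. Without mouse 3 its SD was 0.33, and without mouse 2 or mouse 4 it was 0.72.

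Iigp1, the best-studied vacuole-coating effector, varied little. On the probe set with the suffix _a_at its signal was 22004.4, 24302.4, 26161.6 and 21432.7 in mice 1 to 4, with mouse 3 highest and mouse 4 lowest. On the other it was 7066.9, 5537.0, 6715.5 and 6617.6, with mouse 1 highest and mouse 2 lowest. The probe sets therefore gave different orders of the mice, and the SDs of 0.13 and 0.15 log2 were 1.02 and 0.97 times the prior SD. Without mouse 2 the SD of the second probe set was 0.050. A test of the difference between mice that the probe sets of a gene share, run over the 4956 genes with several probe sets, gave Iigp1 an adjusted p of 0.916 (F-test on limma's moderated variance).

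The regulators Igtp and Irgm1 were both lowest in mouse 1 and highest in mouse 3. Igtp measured 3292.3, 4051.6, 4323.7 and 3427.9 in mice 1 to 4, a range of 1.31-fold. Irgm1 measured 1552.0, 1716.0, 2446.8 and 1889.3, a range of 1.58-fold, with mouse 3 set off from the other three. Their SDs were 0.19 and 0.28 log2, 1.11 and 1.53 times the prior SD (adjusted p = 0.977 for both, limma). Without mouse 3 the SD of Irgm1 was 0.14. For Igtp mice 1 and 4 differed by 0.06 log2 and mice 2 and 3 by 0.09, both less than its prior SD of 0.17. In the values as deposited, therefore, only the order between these pairs of mice exceeded it. With array medians brought together the SD of Igtp was 0.11, 0.56 times the prior SD.

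Gbp3, a guanylate-binding protein, had the second largest relative spread of the members. It measured 1463.6, 1777.9, 2326.5 and 1153.3 in mice 1 to 4, and mouse 3 was 2.02-fold above mouse 4, the lowest. The SD of 0.43 log2 was 2.29 times the prior SD (unadjusted p = 0.056, adjusted p = 0.977, limma). In the values as deposited, each step in the order of the 4 mice, 0.34, 0.28 and 0.39 log2, exceeded the prior SD of 0.19. Gbp3 was the 1 member where that held for each step. The step from mouse 1 to mouse 2 includes a difference between their array medians, 8.12 and 8.24 log2. With array medians brought together the SD of Gbp3 was 0.34, 1.68 times the prior SD.

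The probe sets of Gbp2, a GBP recruited to pathogen vacuoles, disagreed about mouse 2. On the probe set with the suffix _at the signal was 305.0, 519.3, 374.9 and 340.9 in mice 1 to 4, with mouse 2 highest. On the one with the suffix _x_at it was 265.3, 301.1, 451.9 and 378.3, with mouse 3 highest and mouse 2 second lowest. Mouse 1 was lowest on both, and the highest mouse was 1.70-fold above it on each. The suffix _x_at marks probes that can bind other transcripts, and Gbp genes are similar in sequence, and the part of relatives in this signal was not tested. The SDs were 0.33 and 0.34 log2, 1.27 and 1.26 times the prior SD, and the test of a shared difference gave an adjusted p of 0.749. Without mouse 2 the SD of the first probe set was 0.15.

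Mx1 measured 151.3, 272.4, 319.5 and 233.7 in mice 1 to 4. Mouse 1 was set off below the other three, and mouse 3 was 2.11-fold above it. The SD of 0.46 log2 was 1.44 times the prior SD at this low level (adjusted p = 0.977, limma). Without mouse 1 the SD was 0.23.

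**Figure D2:**
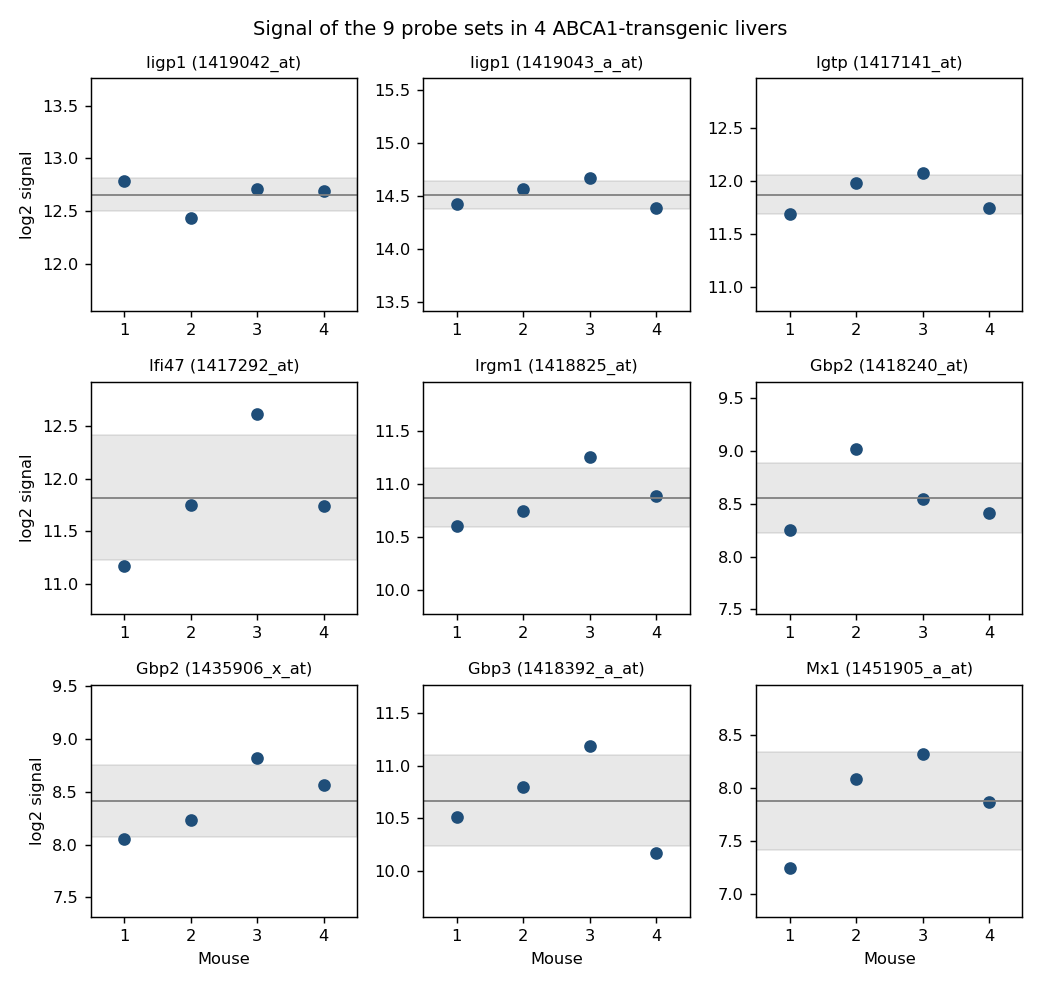
log2 signal of each of the 9 probe sets in mice 1 to 4 (points), with the mean (line) and 1 SD either side (band, n = 4); every panel spans the same number of log2 units. Ifi47 has the widest band, 0.59 log2, and mouse 3 is the highest point in 7 of 9 panels.

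In the values as deposited, the spread between mice was near or above that of probe sets of the same level across all members. The relative spread ran from 0.97 to 3.47 over the 9 probe sets, and its median over the 7 genes, with the brightest probe set of each, was 1.44 against 0.96 over all genes. Adjusted p ran from 0.977 to 0.983 (limma), so 0 of 9 probe sets passed, as did 0 of all 22626 (0% called). At an unadjusted p under 0.05 the count was 1 of 9, Ifi47, while 3.71% of all probe sets reached it. In the test of shared differences 0 of 4956 genes passed (0% called), and at an unadjusted p under 0.05 neither Iigp1 nor Gbp2 was among the 7.43% of genes that reached it. The labels call the arrays biological replicates and, beyond the traits that all animals shared, do not describe each animal. The p-values therefore measure only the spread between these samples, and 4 arrays limit their precision.

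**Figure D3:**
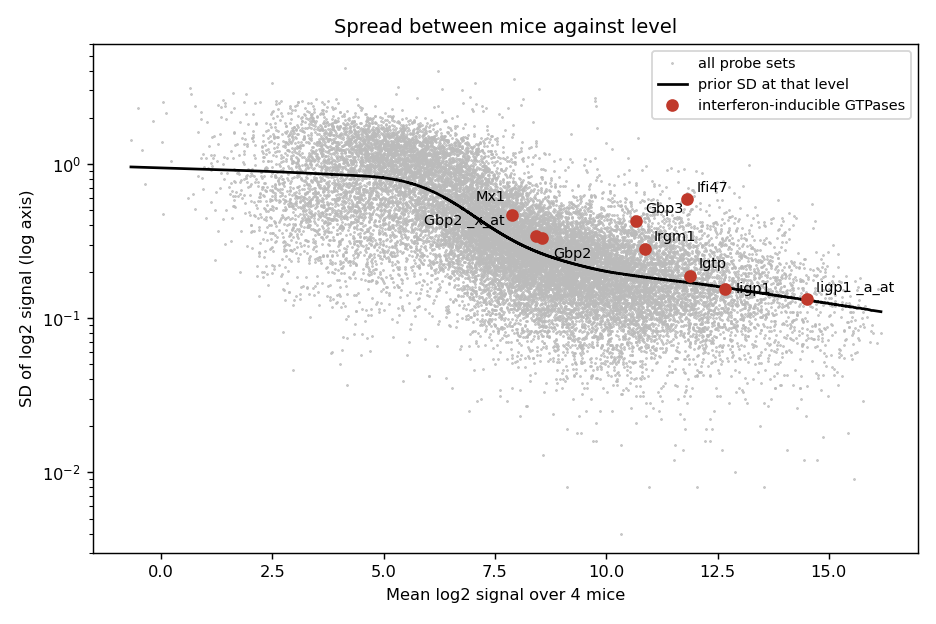
SD of log2 signal between the 4 mice (log axis) against mean log2 signal for all probe sets (grey), with the prior SD fitted by limma (line) and the 9 member probe sets (red). Ifi47 lies at 3.47 times and Gbp3 at 2.29 times the prior SD, and both Iigp1 points lie near the line.

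The members leaned the same way in mice 1 and 3. For each gene, the log2 signal of a mouse was set against the mean of the other 3 mice. In mouse 3 this difference was positive for 6 of 7 members, with a median of 0.51, from -0.01 for Gbp2 to 1.05 for Ifi47, while 59.8% of all genes were higher there with a median of 0.09. In mouse 1 it was positive for 0 of 7, with a median of -0.36, from -0.86 for Ifi47 to -0.12 for Iigp1, while 42.8% of all genes were higher there with a median of -0.05. Mouse 2 was higher for 5 of 7 members with a median of 0.15, against 57.9% and 0.06 for all genes. Its median was -0.092 over the 5 members with a probe set free of the suffixes _a_at, _s_at and _x_at. Mouse 4 was higher for 1 of 7 with a median of -0.17, against 42.9% and -0.06. These medians describe 4 arrays and carry no test.

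**Figure D4:**
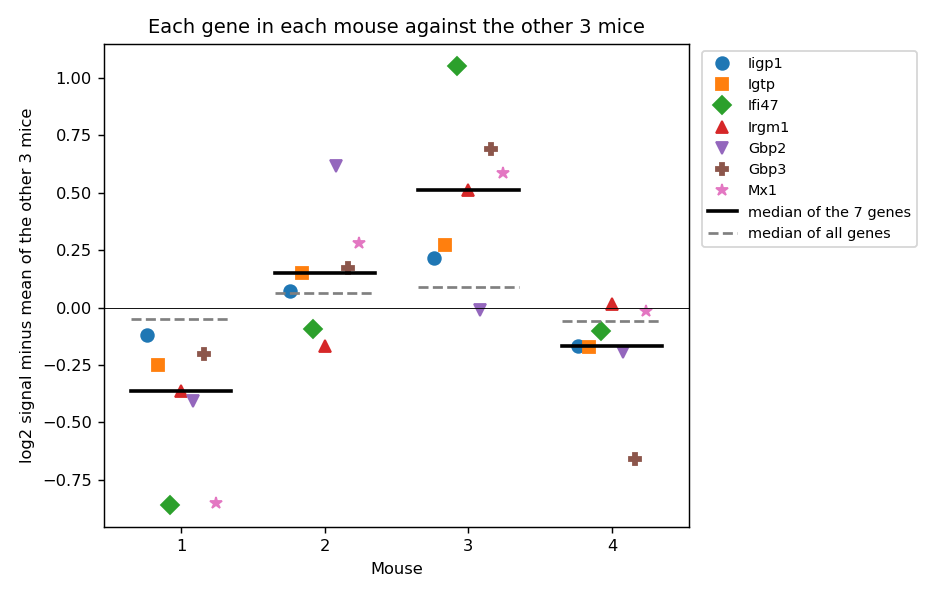
For each mouse, log2 signal minus the mean of the other 3 mice for the 7 members (symbols, 1 probe set each), with their median (black bar) and the median of all genes (dashed grey bar). All 7 symbols are below 0 in mouse 1 and 6 of 7 are above 0 in mouse 3.

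Set directly against each other, mouse 3 exceeded mouse 1 in 7 of 7 members by a median of 0.66 log2, from 0.25 to 1.43, where 60.2% of all genes were higher in mouse 3 by a median of 0.11. These counts use the brightest probe set of a gene, and on the other Iigp1 probe set mouse 3 was below mouse 1, 6715.5 against 7066.9. Mouse 3 exceeded mouse 2 in 6 of 7 members by a median of 0.23, the exception being Gbp2. Over all genes, 51.2% were higher in mouse 3 than in mouse 2, with a median difference of 0.01. Mouse 4 exceeded mouse 3 in 0 of 7 members, at a median difference of -0.37. Over all genes, 39.7% were higher in mouse 4 than in mouse 3, with a median difference of -0.11. Of the 7 members, 4 were lowest in mouse 1 and highest in mouse 3 (Igtp, Ifi47, Irgm1 and Mx1), an arrangement found in 12.8% of all genes. Mouse 1 was the lowest mouse for 5 of 7 members (28.9% of all genes) and mouse 3 the highest for 6 of 7 (33.5% of all genes).

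Array scaling moved these values but not the signs of mice 1 and 3. Bringing the array medians together shifted the arrays by up to 0.11 log2, and the member medians of mice 1 to 4 were then -0.29, 0.06, 0.40 and -0.03. With 1 mouse left out, the value of mouse 3 ran from 0.34, without mouse 1, to 0.53, without mouse 4. That of mouse 1 ran from -0.47, without mouse 4, to -0.21, without mouse 3, and was -0.23 without mouse 2. Probe sets without the suffixes _a_at, _s_at and _x_at read Iigp1, Igtp, Ifi47, Irgm1 and Gbp2. On these alone mouse 3 was at 0.27 and mouse 1 at -0.36. Without Ifi47 they were at 0.39 and -0.31, a choice made after seeing the data.

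Relatives that are not members showed a similar arrangement. The other measured IRG, GBP and Mx genes, 6 in number, were higher in mouse 3 for 6 of 6 (59.8% of all genes), with a median of 0.44. In mouse 1 they were higher for 0 of 6 (42.8% of all genes), with a median of -0.46. Gbp6 measured 9.75, 10.03, 10.97 and 10.46 log2 in mice 1 to 4 (SD 0.53), and Mx2 6.05, 5.92, 8.05 and 8.66 (SD 1.39), so Mx2 separated mice 3 and 4 from mice 1 and 2. Both had an unadjusted p under 0.05 (0.029 and 0.015, limma) and neither passed after adjustment. Gbp2b, the gene between Gbp3 and Gbp2, was the steadiest of these at 9.22, 9.53, 9.61 and 9.35.

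Many targets of interferon outside the GTPase families were also high in mouse 3 or low in mouse 1. Of 14 measured type I interferon targets, 10 were higher in mouse 3, where 59.8% of all genes were, with a median of 0.39, and 2 in mouse 1, where 42.8% of all genes were, with a median of -0.46. Their median relative spread was 1.58, and 6 of 14 had an unadjusted p under 0.05, which 3.71% of all probe sets reached, against 0 of 14 after adjustment. Ifit2, an antiviral RNA-binding protein, was highest in mouse 4, at 6.77, 7.58, 8.45 and 8.56 log2 in mice 1 to 4. Oasl2, an antiviral OAS-like protein, measured 8.80, 9.92, 10.87 and 9.74 in mice 1 to 4, the same order of mice as Ifi47, whereas Zbp1, a nucleic acid sensor, measured 8.31, 8.59, 8.27 and 8.34. Of 17 other interferon-gamma targets, 15 were higher in mouse 3 (59.8% of all genes) with a median of 0.33 and 5 in mouse 1 (42.8% of all genes) with a median of -0.18, which was -0.090 without mouse 3. Their median relative spread was 0.93. With array medians brought together the medians of this list were 0.22 and -0.12, those of the type I targets 0.27 and -0.40, and those of the GTPase relatives 0.32 and -0.40 in mice 3 and 1. Psmb10, an immunoproteasome subunit, measured 9.75, 10.76, 10.79 and 10.29 and was the 1 of these 17 with an unadjusted p under 0.05, and the MHC class II gene H2-Eb1 measured 10.58, 10.58, 10.75 and 10.42. Ciita, the transactivator of MHC class II genes, was highest in mouse 2, at 7.10, 7.79, 7.69 and 6.88.

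Receptors and signalling genes of the pathway had medians near 0 in mouse 3. Of 24 measured, 14 were higher in mouse 3, near the 59.8% of all genes, with a median of 0.03. In mouse 1, 8 were higher (42.8% of all genes), with a median of -0.17. An unadjusted p under 0.05 (limma) was found for 0 of 24, and for 3.71% of all probe sets. The sign for mouse 3 turned with the scaling, to -0.08 with array medians brought together. Irf2, a repressor of interferon responses, had the smallest SD, at 9.89 ± 0.09 log2 (n = 4). The widest members were low: Socs1, a feedback inhibitor of JAK kinases, measured 6.99, 6.27, 5.52 and 4.37, and Ifnb1, interferon beta itself, 6.55, 6.84, 7.22 and 5.54.

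Autophagy conjugation genes, whose products direct IRG and GBP proteins to vacuole membranes, were among the steadiest on the brightest probe set of each gene. Their median relative spread was 0.58 over 15 genes, and their medians lay between -0.04 and 0.08 in the 4 mice, or between -0.14 and 0.15 with array medians brought together. Atg7 measured 9.24, 9.21, 9.32 and 9.27 log2, Map1lc3a 9.51, 9.08, 8.96 and 9.05, and Map1lc3b 12.89, 12.43, 12.62 and 12.98. Other probe sets of a gene did not always follow the brightest. The SD of their disagreement over the mice was 0.39 log2 for Atg7 and 0.91 for Atg12. It was 0.08 for Gabarapl1 and 0.09 for Atg4b. A list of dynamin superfamily GTPases of membrane fission and fusion, chosen without the interferon-induced ones, had a median relative spread of 0.85 over 11 genes. Dnm2 measured 10.03, 10.74, 10.75 and 10.21, Dnm1 6.60, 6.65, 6.90 and 6.00, and Ehd3 10.87, 10.79, 10.82 and 10.81. In mouse 3, 7 of 11 of this list were higher, near the 59.8% of all genes. The median there was 0.25, or 0.13 with array medians brought together. In mouse 1 the median was -0.06, which was 0.01 with array medians brought together.

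**Figure D5:**
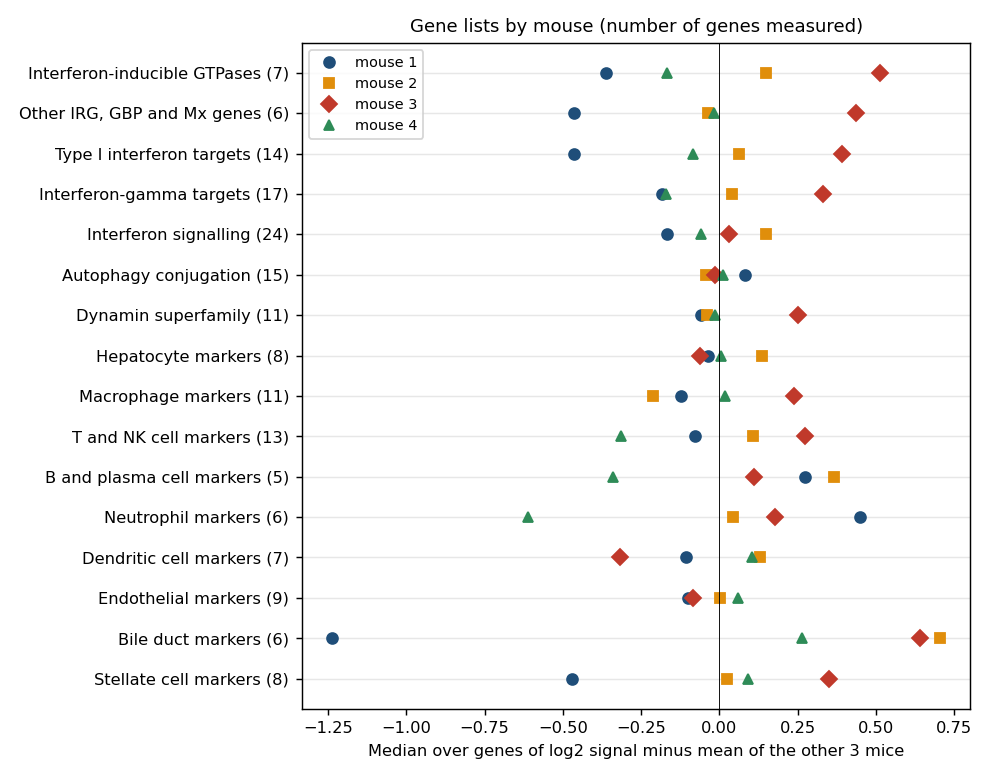
For gene lists (rows, number of genes measured), the median over genes of log2 signal minus the mean of the other 3 mice, for mice 1 to 4 (symbols). Skeletal muscle and exocrine pancreas markers are not shown. Mouse 3 is the rightmost and mouse 1 the leftmost symbol for the GTPases (0.51 and -0.36), their relatives, both lists of interferon targets, the dynamin superfamily (0.25 and -0.058, though mouse 2 is lowest, at -0.13, after shifting arrays to equal medians) and stellate cell markers (0.35 and -0.47); for interferon-gamma targets mouse 4 is lower than mouse 1 after quantile normalization over again (-0.151 and -0.125).

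Markers of other cells moved in the same mice, and their part in these values was not tested. In whole liver RNA, fewer cells of a type and less RNA per cell cannot be told apart. Macrophage and Kupffer cell markers were higher in mouse 3 for 11 of 11 (59.8% of all genes) with a median of 0.24. Their summed signal ran from 34097 in mouse 2 to 43341 in mouse 3. The median of that list was -0.12 in mouse 1, with -0.013 when mouse 3 was left out and -0.019 when mouse 4 was. In mouse 2 it was -0.21 over all mice and -0.13 with mouse 3 left out. T and NK cell markers were higher in mouse 3 for 9 of 13, near the 59.8% of all genes, with a median of 0.27. Their lowest median was -0.31, in mouse 4 (-0.20 without mouse 3). Their summed signal ran from 1301 to 1934, and of the defining markers Cd3e and Cd3d averaged under 64. The stellate cell list had a median of 0.35 in mouse 3, against -0.47 in mouse 1. It was divided, with 6 of 8 higher in mouse 3 (59.8% of all genes) and 3 of 8 in mouse 1 (42.8% of all genes). The 3 higher in mouse 1 were Des, Rgs5 and Dcn, and Des and Dcn were lower in mouse 3. Bile duct markers had medians of 0.64 (0.15 without mouse 1) and -1.24 in those mice, with Epcam and Cftr averaging under 64. The median of muscle markers was 0.74 in mouse 3, against -3.40 in mouse 1. Without mouse 1 the muscle value of mouse 3 was -0.64. Exocrine pancreas markers set mouse 2 apart, with 9 of 9 highest there (29.8% of all genes) and a median of 1.68. Their summed signal was 7159 there, against 1979 to 3153 in the other mice. These markers were higher in mouse 3 for 0 of 9 (59.8% of all genes). Their median there was -0.68, which was -1.17 without mouse 1 and -0.31 without mouse 2. Dendritic cell markers were at -0.32 in mouse 3 (-0.096 without mouse 2) and hepatocyte markers at -0.06 (-0.092 without mouse 1 and -0.013 without mouse 2). B cell, neutrophil and endothelial markers were at 0.11, 0.18 and -0.09 there, against -0.0041, 0.0054 and -0.042 with mouse 4 left out. Leaving out mouse 2 gave 0.26 and 0.28 for B cell and neutrophil markers, and leaving out mouse 1 gave 0.073 and 0.35. No marker was listed at 0.

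Within the marker lists the members with the largest and smallest SD over the 4 mice were as follows. Macrophage markers Cd5l (0.37 log2) and C1qb (0.36) varied most and Vsig4 (0.11) least. Among T and NK cell markers Cd3d (1.29) and Gzma (0.59) varied most and Cd3g (0.07) least, and among B cell markers Ms4a1 (0.49), Cd79b (0.48) and Cd79a (0.23) were the widest pair and the steadiest. Neutrophil markers S100a8 (1.56) and Mpo (0.77) were wide and S100a9 (0.21) narrow, as were dendritic cell markers Bst1 (0.85), Flt3 (0.76) and Zbtb46 (0.15). Endothelial markers ran from 0.08 for Eng to 0.24 for Pecam1 and 1.93 for Tie1, and bile duct markers from 0.34 for Epcam to 1.44 for Krt19 and 2.02 for Cftr. Stellate cell markers ran from 0.07 for Dcn to 0.53 for Acta2 and 0.61 for Col3a1, and hepatocyte markers from 0.02 for Fga to 0.17 for Ttr and 0.22 for Tat. Muscle markers ran from 0.64 for Mylpf to 2.65 for Tnnc2 and 3.08 for Mb, and pancreas markers from 0.31 for Cela1 to 2.43 for Cpb1 and 3.18 for Cpa1.

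The genes whose pattern over the 4 mice was most like the members' median were Qprt, Polr3gl, Tm6sf1, Ddx24 and Slco2a1. Likeness was the root mean square difference between mean-centred log2 values over 4 mice, among 7154 other genes above the median level. It was 0.03 for the first 4 and 0.04 for Slco2a1, and 258 genes lay under 0.1, so a close match is common with 4 arrays. Of these 5 genes, 0 were among the nearest 5 after quantile normalization over again. Qprt, an enzyme of NAD synthesis, measured 4341.2, 5636.7, 6995.9 and 4780.4 in mice 1 to 4. Among the members themselves, Iigp1 and Igtp were closest to each other (0.06) and Ifi47 and Gbp2 farthest apart (0.51).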

How the data were processed

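Liver total RNA of 4 mice was hybridized to 1 array each, amplified from 2 ug with RiboAmp per the labels' protocols. That procedure primes on the poly(A) tail, which favours the 3-prime part of a transcript. The values are linear signal intensities deposited by the authors, 1 per probe set and array. RMA is named, without version, per the submitters' processing notes. Unlike what RMA usually gives, the deposited intensities are linear, reach down to 0.1 and are not distributed alike across arrays. The deposited intensities are scaled to a trimmed mean of 1000.4 or 1000.5 (2% at each end), the background treatment being not given in the sources used here. Here 64 control probe sets were left out and log2 taken with no pseudocount. Names came from the platform annotation, where 20380 of 22626 probe sets had 1 symbol, 691 several and 1555 none.

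Limma 3.58.1 (R 4.3.3) compared the variance between mice with a trended, robust prior and adjusted over all probe sets at 0.05. An SD from 4 arrays has a 95% interval of 0.57 to 3.73 times its value. Both tests were tested on simulated data. For lists, the brightest probe set of each gene was used. Genes named are all members, the 2 with the largest and 1 with the smallest SD in each other list, and the 5 genes most like the members. Other genes, given as examples of a count or motif, were picked with values in view. The members, lists and tests were chosen with earlier results of these data known. Alternatives were 2 array scalings, a level filter, a floor of 64, a pseudocount of 16, other priors, other probe sets and leaving out each mouse. Promoter sequences are RefSeq's (GRCm38.p6).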

Additional observations from a re-analysis of the deposited data

Results flagged for a closer look

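Of 65 named probe sets, 5 had 1 mouse far from the other three. This was judged by the gap to the nearest mouse over the whole range and Dixon's limit for 4 samples. Chance gives about 1 in 20 for probe sets not picked by their values. The 65 include the 2 with the largest SD in each list, and all 5 flagged are such picks, so that rate does not apply to this count. None was a GTPase. Mb (0.852) and Tnnc2 (0.891), of muscle, were low in mouse 1, at 3.90 and 4.16 log2 against 9.46 to 10.42 and 9.10 to 9.70. Cftr (0.913), a bile duct channel, was also low in mouse 1, at 1.89 against 5.71 to 6.07. Tie1 (0.897), an endothelial receptor whose signal averaged under 64, was low in mouse 3, at 2.29 against 5.92 to 6.33. Cd79b (0.947), of the B cell receptor, was low in mouse 4, at 6.23 against 7.16 to 7.21.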

How the results depend on the processing

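The number of probe sets past the excess spread test was 5, in place of 0, when those with a mean log2 level under 6 were left out, and none of the 5 was a member. The number of genes past the shared difference test was 3 with that filter, 1 with signals under 64 raised to 64 and 1 with a pseudocount of 16, in place of 0. With each mouse left out both counts were 0. Counts at an unadjusted p under 0.05 were 839 and 368 with all mice. The member median of mouse 2 was 0.15, and -0.092 when probe sets with the suffixes _a_at, _s_at and _x_at were left out, and its leave-one-out values ran from 0.018 (without mouse 4) to 0.29 (without mouse 3). Those of mouse 1 ran from -0.47 to -0.21, of mouse 3 from 0.34 to 0.53 and of mouse 4 from -0.34 (without mouse 1) to -0.091 (without mouse 3). The cause of these changes was not tested. Of the 5 genes most like the members, 0 were among the nearest 5 with quantile normalization over again or with any mouse left out. No member passed the excess spread test under any alternative run. A spread near or above that of probe sets of the same level did not hold for every member under the alternatives. With array medians brought together the relative spread was 0.30 for the Iigp1 probe set with the suffix _a_at and 0.56 for Igtp. Every other member probe set stayed above its prior SD there. Without mouse 2 the other Iigp1 probe set had a relative spread of 0.31, and the Gbp2 probe set with the suffix _at 0.56. Mx1 had 0.72 without mouse 1, and Irgm1 0.80 without mouse 3. With 1 prior for all levels the Iigp1 probe sets had 0.54 and 0.47, and Igtp 0.67. Ifi47 and Gbp3 stayed above their prior SD under every alternative, at no less than 2.02 (without mouse 3) and 1.52 (1 prior for all levels). For Ifi47 the adjusted p ran from 0.213 (signals under 64 raised to 64) to 0.984. With that floor every member probe set had the same adjusted p of 0.213 (limma), so the value does not set Ifi47 apart. Low signals and 4 arrays limit what could be detected. No paired analysis was possible because all arrays belong to 1 group.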
